A study of Homo sapiens with 4 samples.

Results

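The genes described here encode the heat shock proteins and their J-domain co-chaperones. The members were all rows of the deposited gene table whose symbol is DNAJA, DNAJB or DNAJC with a number, HSPA, HSPB, HSPH1, HSPD1, HSPE1, HSP90AA1, HSP90AB1 or HSP90B1, with CRYAB (alpha-B crystallin) and HSF1 added. This gave 74 of 28278 genes: 30 named or grouped as heat shock proteins, 43 J-domain proteins and HSF1. The rule goes by symbol and not by measured level, but it was chosen with earlier results of these data known. RNA sequencing of total RNA was carried out on A549 cells, a human lung adenocarcinoma line. The control group (2 libraries, genotype WT in the labels) was a stable line infected with lentivirus carrying a control construct. The CBX7 group (2 libraries) was a stable line infected with lentivirus carrying CBX7, a chromobox protein that reads methylated histone H3 as part of Polycomb repressive complex 1. Each group is thus a single stable line, uninfected cells were not analysed here, and the promoter of the construct is not given in the sources used here.

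Chaperones of the HSP70 family bind unfolded stretches of client proteins in cycles of ATP hydrolysis. J-domain proteins deliver clients to HSP70 and stimulate its ATPase, HSP110 proteins exchange its nucleotide, and HSP90 takes over clients such as kinases and steroid receptors at a later step of folding. The cytosol, the endoplasmic reticulum (ER) and the mitochondrion each hold their own HSP70 with its own J-domain partners. HSF1 is the transcription factor that induces the cytosolic set under heat and proteotoxic stress, and the unfolded protein response induces the ER set.

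Of the 74 members, 68 passed the low-count filter and were tested, 7 were higher, 11 were lower and 50 were not called. The called share, 26.5% of tested members, lay near the 24.4% of all 17271 tested genes that were called. In each direction the members' counts stood against backgrounds of 10.5% of tested genes higher and 13.9% lower. The threshold for a call was an adjusted p of 0.05 in edgeR's quasi-likelihood test, and fold changes are CBX7 over control. The changes were small: the median log2 fold change of tested members was -0.06, against 0.00 for all tested genes, and its median size was 0.246, against 0.332. Only 2 of 68 tested members, DNAJC27 and CRYAB, were called with a change of 2-fold or more, against 7.47% of all tested genes. In 47 of 68 tested members the groups did not overlap (20 higher, 27 lower), against 62.8% of all tested genes (30.8% higher, 31.9% lower). The higher members were HSPA1A, HSPA1B, HSPA2, HSPA12A, CRYAB, DNAJB1 and DNAJC22. The lower members were HSPA5, HSPA13, HSP90B1, DNAJA1, DNAJB4, DNAJB6, DNAJB9, DNAJC2, DNAJC18, DNAJC25 and DNAJC27.

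Compartments were assigned from general knowledge, with earlier results of these data known. Of 40 tested cytosolic and nuclear members, 5 were higher and 5 lower. In the ER 0 of 13 were higher and 5 lower (38.5%), against 10.5% and 13.9% of all tested genes. In the mitochondrion 0 of 10 were called by edgeR, of which 2 had an unadjusted p under 0.05, and DESeq2 called 1 and limma-voom 0. Of the 5 members placed in none of these, 2 were higher and 1 lower. Scaling by library totals in place of TMM (trimmed mean of M values, a scaling that centres the bulk of genes) moved the split of members to 10 higher and 10 lower, and that of all genes from 1809 higher and 2399 lower to 2487 and 2033. Leaving out a CBX7 library lowered the number of called members, to 6 higher and 7 lower without the first and 4 higher and 7 lower without the second. The ER members called lower then numbered 2 and 3, and 2 without control library 1. The cytosolic members called higher and lower numbered 3 each without CBX7 library 2.

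**Figure D1:**
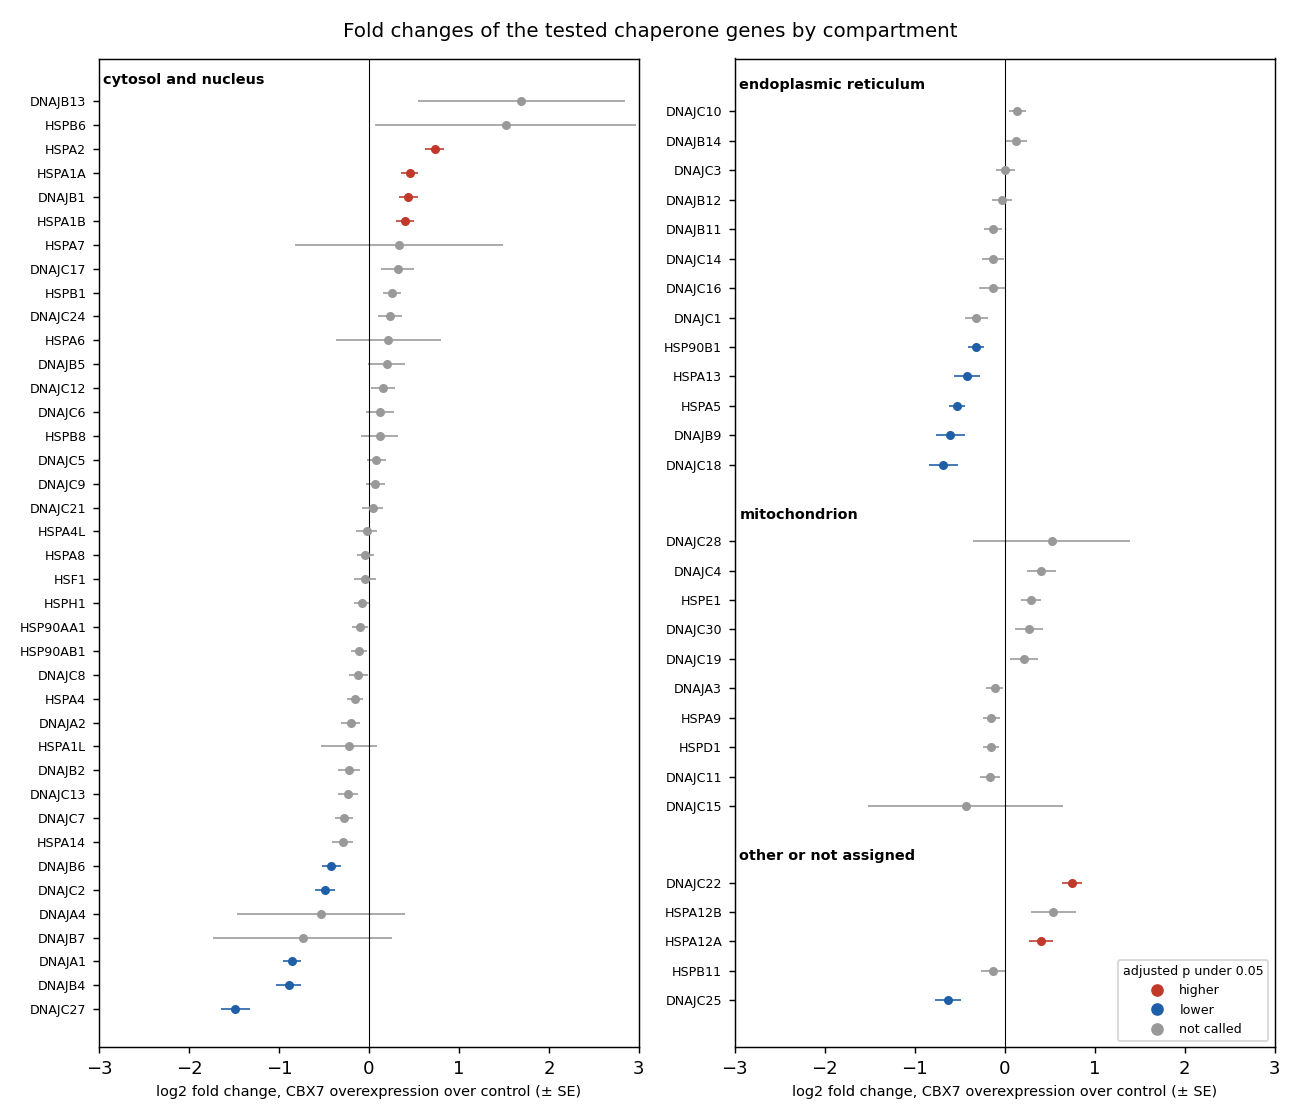
Log2 fold changes of the tested members with their standard errors (horizontal bars), grouped by compartment; CRYAB, which had 0 counts in both controls, is left out. Red points were called higher and blue points lower at an adjusted p under 0.05. The left panel holds the cytosolic and nuclear members, and the right panel the other groups. Among the ER members the called points all lie left of 0, and the cytosolic and nuclear members have called points on both sides.

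Library totals were 69877585 to 90765502 counts. CBX7 itself was at 8.0 and 8.74 CPM (counts scaled to the TMM-adjusted library total) in the controls. In the CBX7 libraries it was at 19.1 and 17.2 CPM (log2 fold change 1.11, adjusted p = 0.000141), so the labels held for the targeted gene. SOCS3, the gene in the series title, was at 43.8 and 40.8 CPM and then at 11.1 and 8.23 CPM (adjusted p = 1.87e-07). The epithelial keratins KRT8 and KRT18 were abundant and the summed level of 5 epithelial markers was 10908 to 11926 CPM, while EPCAM reached at most 1.61 CPM and KRT19 at most 0.453 CPM. Of the lung lineage markers, NKX2-1 was at 0.302 and 0.469 CPM in controls and 1.27 and 1.09 CPM with CBX7, and SCGB1A1 was at 0 counts in all libraries. Markers of fibroblasts summed to 5.55 to 8.91 CPM. Leukocyte markers summed to at most 1.36 CPM in controls and 3.26 CPM with CBX7, nearly all of it CD14, with CD3E at 0 counts throughout. The 4 endothelial markers summed to 0.836 to 1.61 CPM in controls and 2.88 to 3.68 CPM with CBX7, mostly CDH5. A programme of 20 interferon-stimulated genes moved with the groups: all 20 were called lower, and their sum went from 14018 to 15574 CPM in controls to 408 to 477 CPM with CBX7. The part of these differences in the chaperone results was not tested.

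Promoter sequences are shown for 6 members that hold a stress element in a form searched below, and not all members that hold one are shown. Of the 6, HSPA1A was higher, HSPA8 was not called, and HSPA5, HSP90B1, DNAJA1 and DNAJB6 were lower. The windows run from 250 bases before to 50 after the RefSeq start site (GRCh38.p14), and 63 of 74 members had such a window. The ER stress element was searched as CCAAT followed, after 9 bases of any kind, by CCACG. The heat shock element was searched in a form of 2 units, GAANNTTC, and in a form of 3 units, which continues after 2 bases of any kind with GAA and so contains the shorter form. Both strands were searched. HSPA5 (chr9:125241294-125241593, minus strand) and HSP90B1 (chr12:103930160-103930459, plus strand) were the only 2 of 63 members with the ER stress element, which 0.081% of 27305 promoters hold, and HSP90B1 holds it at 2 places. Capitals mark the element.
HSPA5: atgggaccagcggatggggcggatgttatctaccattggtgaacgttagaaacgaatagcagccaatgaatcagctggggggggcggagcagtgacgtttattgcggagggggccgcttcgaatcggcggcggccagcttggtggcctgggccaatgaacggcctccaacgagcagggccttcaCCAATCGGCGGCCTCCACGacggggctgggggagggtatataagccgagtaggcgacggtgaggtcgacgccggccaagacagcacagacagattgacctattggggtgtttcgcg
HSP90B1: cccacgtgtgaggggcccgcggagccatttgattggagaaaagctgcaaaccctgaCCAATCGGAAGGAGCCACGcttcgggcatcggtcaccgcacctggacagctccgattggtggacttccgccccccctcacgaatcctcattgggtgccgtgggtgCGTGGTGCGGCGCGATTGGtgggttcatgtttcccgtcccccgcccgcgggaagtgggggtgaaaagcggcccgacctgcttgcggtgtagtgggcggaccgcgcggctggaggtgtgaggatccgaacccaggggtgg
The 3-unit heat shock element occurred in 4 of 63 members (DNAJA1, DNAJB6, HSPA6 and HSPA8) and in 0.487% of all promoters. Those of DNAJA1 (chr9:33025023-33025322, plus strand), DNAJB6 (chr7:157336754-157337053, plus strand) and HSPA8 (chr11:123062087-123062386, minus strand) are given with the element in capitals. HSPA8 holds it at 2 places, and in DNAJA1 it begins 3 bases after the start site.
DNAJA1: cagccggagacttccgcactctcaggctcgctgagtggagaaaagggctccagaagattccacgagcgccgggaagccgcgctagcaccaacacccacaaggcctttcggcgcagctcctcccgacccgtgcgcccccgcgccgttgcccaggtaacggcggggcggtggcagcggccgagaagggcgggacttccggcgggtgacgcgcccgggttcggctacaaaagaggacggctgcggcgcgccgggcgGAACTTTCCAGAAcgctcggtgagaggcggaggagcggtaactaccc
DNAJB6: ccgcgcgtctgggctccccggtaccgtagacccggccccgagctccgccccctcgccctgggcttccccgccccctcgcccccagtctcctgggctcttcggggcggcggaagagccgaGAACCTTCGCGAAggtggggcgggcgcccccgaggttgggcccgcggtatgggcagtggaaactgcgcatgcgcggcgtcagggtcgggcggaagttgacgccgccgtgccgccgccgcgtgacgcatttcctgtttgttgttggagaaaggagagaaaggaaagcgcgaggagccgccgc
HSPA8: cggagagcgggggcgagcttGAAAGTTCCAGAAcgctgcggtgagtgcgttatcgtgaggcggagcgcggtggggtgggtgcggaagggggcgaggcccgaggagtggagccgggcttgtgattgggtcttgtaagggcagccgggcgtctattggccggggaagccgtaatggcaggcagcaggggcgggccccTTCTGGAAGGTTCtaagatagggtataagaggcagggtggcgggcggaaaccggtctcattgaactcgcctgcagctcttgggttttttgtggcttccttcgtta
HSPA1A (chr6:31815293-31815592, plus strand) held only the 2-unit form, in capitals here, which 11 of 63 members and 6.867% of all promoters hold.
HSPA1A: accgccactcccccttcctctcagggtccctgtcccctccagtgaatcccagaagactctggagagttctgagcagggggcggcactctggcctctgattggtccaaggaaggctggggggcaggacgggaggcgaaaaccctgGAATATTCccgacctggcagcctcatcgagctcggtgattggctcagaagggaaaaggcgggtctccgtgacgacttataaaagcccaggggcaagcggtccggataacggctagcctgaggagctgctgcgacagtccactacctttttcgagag
Of the 11 members with the 2-unit form, HSPA1A and HSPA1B were higher, and DNAJA1 and DNAJB6 were lower. Of all tested genes, 10.5% were called higher and 13.9% lower. HSPA1A and HSPA1B are nearly identical copies whose reads are hard to separate, so their calls are not independent. DNAJB7, HSPA1L, HSPA6, HSPA8, HSPB1, HSPB6 and HSPB8 were not called. The windows of HSPA1A and HSPA1L overlap, so 1 site can count for both. Neither form was found in the window of DNAJB1, which was higher, or in those of HSPH1 and HSP90AA1, which were not called. A single window per member was searched, so other start sites of a gene were not covered. The HSP90AA1 window (chr14:102139700-102139999, minus strand) lies at the outer end of a gene body of 102080742 to 102139749. An interferon response element, searched as GAAA and GAAA with 2 bases of any kind between them, was found in 0 of 63 members and in 3.648% of all promoters. A match of letters is a description of the window and not a measured binding site.

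HSF1 did not differ beyond its spread, with 67.4 and 80.2 CPM in the controls and 68.1 and 75.1 CPM with CBX7 (log2 fold change -0.04, SE 0.118, adjusted p = 0.845). The groups overlapped.

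HSPA1A and HSPA1B, a pair of stress-inducible cytosolic HSP70 genes, were higher with CBX7. HSPA1A (chromosome 6, 31815543 to 31817942, GRCh38) was at 156 and 161 CPM in the controls and at 208 and 226 CPM in the CBX7 libraries. HSPA1B (chromosome 6, 31827738 to 31830254), its neighbour, was at 152 and 152 CPM and then at 191 and 210 CPM. Both CBX7 libraries lay above both controls in each gene. In such bulk samples, a change in the share of cells that express a gene cannot be told apart from a change in RNA per cell. HSPA1A rose 1.37-fold (log2 fold change 0.45, SE 0.0953, adjusted p = 0.00342) and HSPA1B 1.32-fold (0.40, SE 0.0967, adjusted p = 0.00827), and HSPA1B lost its call without CBX7 library 2 (adjusted p = 0.113). The pair is nearly identical: 69.9% of the 100-base stretches of the HSPA1A transcript also occur in HSPA1B, so the split between them is uncertain. Their summed level does not depend on that split and went from 310 ± 2.60 to 417 ± 25.9 CPM (SD, n = 2).

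HSPA2, an HSP70 best known from spermatogenesis, was at 83.2 and 88.6 CPM in the controls and at 133 and 152 CPM with CBX7. It rose 1.66-fold (log2 fold change 0.73, SE 0.108, adjusted p = 0.000225), and shared no 100-base stretch with another gene. HSPA12A, an atypical HSP70, rose from 19.2 ± 1.53 to 25.4 ± 1.80 CPM (SD, n = 2, adjusted p = 0.0416), a call that ended without control library 2, CBX7 library 1 or CBX7 library 2 (adjusted p up to 0.315). The constitutive HSP70 of the cytosol, HSPA8, was at 2028 and 1952 CPM in the controls and 1823 and 2054 CPM with CBX7. Its groups overlapped (log2 fold change -0.04, adjusted p = 0.832). The count of HSPA1A relative to HSPA8 in the same library was 0.0771 and 0.0822 in the controls and 0.114 and 0.110 with CBX7.

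HSPA14, HSPA1L, HSPA6, HSPA7 and, outside the cytosolic group, HSPA12B were not called. HSPA14, which works at the ribosome, was at 84.1 and 71.9 CPM in the controls and at 64.1 and 63.4 CPM with CBX7 (adjusted p = 0.0792); it passed at a mean count of at least 50 (0.0468) and without control library 2 (0.0308). HSPA1L and HSPA12B were at 3.47 ± 1.31 and 3.40 ± 0.166 CPM in the controls (SD, n = 2; adjusted p of 0.677 and 0.142). HSPA6, a heat shock gene that is strongly induced by severe stress, stayed between 0.545 and 0.931 CPM in all 4 libraries, and its pseudogene-like copy HSPA7 was at or below 0.279 CPM. The copies share reads: 27.6% of the 100-base stretches of HSPA6 occur in HSPA7.

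HSP110 and cytosolic HSP90 genes were not called. HSPH1, the heat-inducible HSP110, was at 205 and 202 CPM in the controls and at 194 and 192 CPM with CBX7 (log2 fold change -0.08, adjusted p = 0.613). HSPA4 went from 381 ± 2.07 to 343 ± 2.28 CPM (SD, n = 2, adjusted p = 0.262), and HSPA4L was at 53.9 ± 3.78 and 53.0 ± 4.03 CPM (adjusted p = 0.910). The groups did not overlap for HSPH1 and HSPA4, which alone says little, since 62.8% of all tested genes had groups that did not overlap. HSP90AA1, the inducible HSP90, was at 2593 and 2700 CPM and then at 2418 and 2534 CPM (log2 fold change -0.10, adjusted p = 0.495). HSP90AB1, the constitutive form, was at 1990 and 2014 CPM and then at 1820 and 1881 CPM (log2 fold change -0.11, adjusted p = 0.406). No member of either family had an unadjusted p under 0.05 other than the ER member HSP90B1, and neither DESeq2 nor limma-voom called another.

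The small heat shock proteins, which hold unfolded clients without ATP, were mostly not called. HSPB1 (HSP27) was at 182 and 209 CPM in the controls and at 226 and 242 CPM with CBX7. Its groups did not overlap, and it lay just outside the threshold (log2 fold change 0.26, SE 0.0992, adjusted p = 0.0740); it passed with library totals (0.0266), DESeq2 (0.0383), a mean count of at least 50 (0.0488), the replicate block (0.0394) and without control library 2 (0.0297). Without control library 1 the log2 fold change was 0.17 (adjusted p = 0.320), and without CBX7 library 1 or 2 the adjusted p was 0.164 or 0.340. CRYAB had 0 counts in both controls and 19 and 26 counts with CBX7, a level at least 6.23-fold above the floor of 3 counts per library (adjusted p = 0.0225). A deposited 0 may also be a failed estimate, and the bound takes it as a count of 0. The call ended without any single library (adjusted p up to 0.111) and with the replicate block (0.0594). CRYAB also overlaps HSPB2 head to head in 20.6% of its exon bases, on the opposite strand. HSPB8, a partner of BAG3, was at 6.59 ± 1.07 and 7.17 ± 0.142 CPM (SD, n = 2, adjusted p = 0.739). HSPB11, included by its symbol and assigned to no compartment, was at 22.2 ± 0.709 and 20.2 ± 2.41 CPM (adjusted p = 0.560). HSPB6 did not exceed 0.322 CPM (adjusted p = 0.505). HSPB2 and HSPB7 had 0 counts in all libraries, where 3 counts would be 0.0320 to 0.0440 CPM, and HSPB3 and HSPB9 did not exceed 0.0929 CPM; these 4 were not tested.

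**Figure D2:**
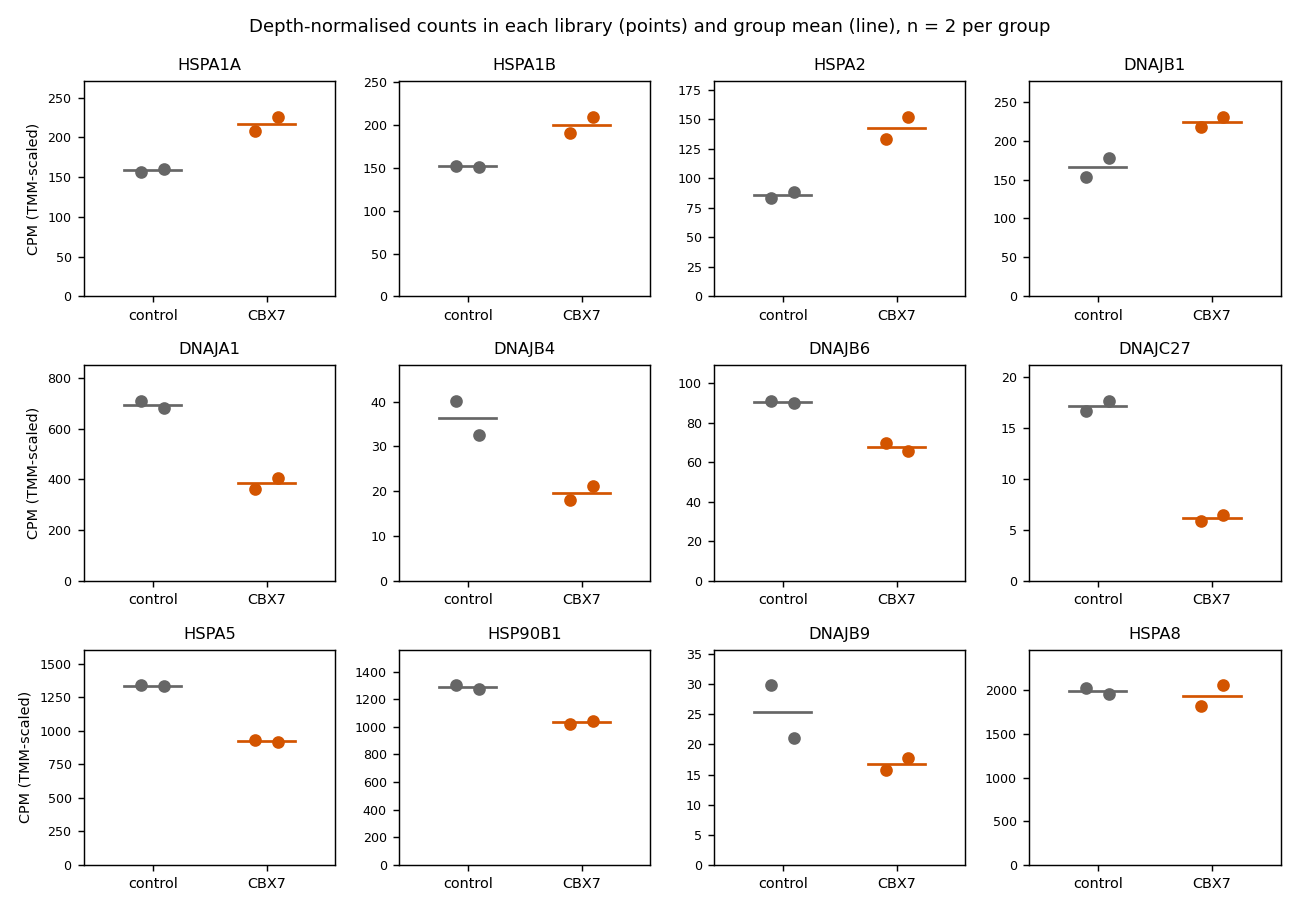
TMM-scaled CPM (vertical axes, from 0) of 12 members in the 2 control and 2 CBX7 libraries; each point is a library and each line a group mean. HSPA1A, HSPA1B, HSPA2 and DNAJB1 lie higher in both CBX7 libraries, DNAJA1, DNAJB4, DNAJB6, DNAJC27, HSPA5, HSP90B1 and DNAJB9 lie lower, and the groups of HSPA8 overlap.

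Cytosolic J-domain proteins that supply HSPA8 and HSPA1A with clients moved in different directions. DNAJA1 (chromosome 9, 33025273 to 33039907, GRCh38), the most abundant J-domain member per transcript length, was at 708 and 681 CPM in the controls and at 360 and 407 CPM in the CBX7 libraries. The groups were far apart: it fell by 44.8% (log2 fold change -0.86, SE 0.0992, adjusted p = 2.45e-05). DNAJB1 (chromosome 19, 14514769 to 14560391), the classical HSP40 that responds to HSF1, was at 153 and 178 CPM and then at 218 and 230 CPM. It rose 1.36-fold (log2 fold change 0.44, SE 0.102, adjusted p = 0.00647). The count of DNAJA1 relative to DNAJB1 within a library was 4.63 and 3.83 in the controls and 1.65 and 1.76 with CBX7. TECR, which lies on the opposite strand and overlaps 5.7% of the exon bases of DNAJB1, also rose (log2 fold change 0.40, adjusted p = 0.0200). Without known strandedness reads of the overlap cannot be told apart. The DNAJB1 transcript compared shared 0.0% of its 100-base stretches with other genes.

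DNAJB4, a class B co-chaperone of the cytosol, was at 40.1 and 32.6 CPM in the controls and at 18.1 and 21.2 CPM with CBX7, a fall of 46% (log2 fold change -0.89, SE 0.140, adjusted p = 0.000372). DNAJB6, which suppresses aggregation of polyglutamine proteins, was at 90.9 and 90.2 CPM and then at 69.9 and 65.9 CPM. It fell by 25% (adjusted p = 0.0113), and the call ended without CBX7 library 1 (0.0504) or 2 (0.158). DNAJA2, the other main class A protein of the cytosol, went from 122 ± 5.15 to 106 ± 4.30 CPM (SD, n = 2) and was not called (adjusted p = 0.174). DNAJB2 and DNAJB5 were not called either, with log2 fold changes of -0.22 and 0.20 (adjusted p of 0.223 and 0.552). DNAJA4, DNAJB7 and DNAJB13 were near the detection floor, with at most 0.569 CPM in any library, and DNAJB3 and DNAJB8 were not tested. The summed level of the 4 DNAJA genes, the mitochondrial DNAJA3 included, went from 943 ± 22.7 to 606 ± 35.7 CPM (SD, n = 2). Within that sum DNAJA1 went from 695 ± 19.7 to 383 ± 32.6 CPM. The 13 DNAJB genes, ER members included, summed to 563 ± 1.45 and 567 ± 8.58 CPM.

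In the diverse DNAJC family, 1 of 26 members was higher and 4 lower, a called share of 19.2% against 24.4% of all tested genes. DNAJC27, a Rab-like GTPase with a J domain (chromosome 2, 24943636 to 24972094, GRCh38), was at 16.7 and 17.7 CPM in the controls and at 5.83 and 6.44 CPM with CBX7. It fell by 64.2% (log2 fold change -1.48, SE 0.164, adjusted p = 1.59e-05), the largest change among tested members other than CRYAB and the uncalled low-count genes DNAJB13 and HSPB6. DNAJC22, a membrane protein, was at 41.9 and 41.8 CPM and then at 74.3 and 66.2 CPM, and rose 1.68-fold (log2 fold change 0.75, SE 0.111, adjusted p = 0.000236). DNAJC2, which sits on the ribosome with HSPA14 and is also known as a factor that removes Polycomb repressive complex 1 from ubiquitinated histone H2A, was at 85.8 and 75.5 CPM and then at 58.7 and 56.5 CPM. It fell by 28.6% (log2 fold change -0.49, SE 0.112, adjusted p = 0.00599) and lost its call without CBX7 library 2 (0.0716).

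DNAJC25 fell from 23.9 ± 3.43 to 15.5 ± 0.353 CPM (SD, n = 2, adjusted p = 0.00632), but its count is tied to that of an overlapping read-through gene. For DNAJC25-GNG10 the table lists 487 counts in control library 1, 771 in CBX7 library 1 and 0 in the second library of each group. The 2 genes together were at 27.2 and 26.4 CPM in the controls and at 24.0 and 15.2 CPM with CBX7, so the size of the fall depends on how these reads were assigned. DNAJC7, a partner of HSP70 and HSP90, went from 161 ± 4.17 to 133 ± 2.37 CPM (SD, n = 2) and lay just outside the threshold (adjusted p = 0.0525). It passed with DESeq2 (0.0199), limma-voom (0.0431), a mean count of at least 50 (0.0368) and the replicate block (0.0391), and was not called without any single library (0.0625 to 0.321) or with library totals (0.136). CNP, on the opposite strand over 4.3% of the exon bases of DNAJC7, fell from 364 to 121 CPM on average (adjusted p = 1.45e-08). Of the 100-base stretches of the DNAJC7 transcript compared, 22.5% occur in other genes (12.5% in CNP). Without known strandedness such reads cannot be told apart, and the part of CNP reads in the DNAJC7 change was not tested.

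The other cytosolic and nuclear DNAJC members were not called. DNAJC13, an endosomal protein, went from 102 ± 9.33 to 86.6 ± 7.60 CPM (SD, n = 2, adjusted p = 0.162). The remaining genes, among them the vesicle protein DNAJC5, the clathrin uncoating factor DNAJC6, the splicing factor DNAJC8 and the histone chaperone DNAJC9, had log2 fold changes of -0.12 to 0.32.

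In the ER, the HSP70 HSPA5, the HSP90 HSP90B1, HSPA13, DNAJB9 and DNAJC18 were lower, and the other 8 of 13 members were not called. HSPA5 (BiP, the HSP70 of the ER lumen; chromosome 9, 125234853 to 125241343, GRCh38) was at 1340 and 1332 CPM in the controls and at 932 and 919 CPM with CBX7. The replicates lay close together and the groups apart, a fall of 30.7% (log2 fold change -0.53, SE 0.0906, adjusted p = 0.000748). HSP90B1 (GRP94, the HSP90 of the ER; chromosome 12, 103930410 to 103947926) was at 1300 and 1275 CPM and then at 1023 and 1042 CPM. It fell by 19.8% (log2 fold change -0.32, SE 0.0906, adjusted p = 0.0201); its fold change moved little when a library was left out (-0.33 to -0.30), but with 3 libraries it was not called in any of the 4 fits (adjusted p up to 0.107). HSPA5 and HSP90B1 are the members whose promoters hold the ER stress element shown above.

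DNAJB9 (ERdj4), a BiP partner in ER-associated degradation, was at 29.8 and 21.1 CPM in the controls and at 15.8 and 17.8 CPM with CBX7 (log2 fold change -0.60, adjusted p = 0.0164). Leaving out library 1 of either group ended the call (adjusted p = 0.150 without the control and 0.0965 without the CBX7 library). HSPA13, a microsomal HSP70, was at 68.3 and 51.5 CPM and then at 40.3 and 49.0 CPM, close to overlapping, and its call (adjusted p = 0.0474) ended without control library 1 (0.358) or CBX7 library 1 (0.303), with library totals (0.0816) and with the replicate block (0.0662). DNAJC18, an ER membrane protein with a cytosolic J domain, fell by 37.8%, from 14.1 ± 1.03 to 8.81 ± 0.206 CPM (SD, n = 2, adjusted p = 0.00737), a call that ended without CBX7 library 2 (0.0617).

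Other BiP co-chaperones were not called. DNAJC3 (P58IPK), which is induced in the unfolded protein response, was at 61.4 and 60.4 CPM in the controls and at 63.1 and 59.5 CPM with CBX7 (log2 fold change 0.01, adjusted p = 0.973). DNAJB11 (ERdj3) went from 95.9 ± 1.27 to 87.7 ± 2.66 CPM (SD, n = 2, adjusted p = 0.415), and DNAJC10 (ERdj5), a reductase of the ER, from 176 ± 6.21 to 194 ± 2.17 CPM (adjusted p = 0.318). DNAJC1 had a log2 fold change of -0.32 (adjusted p = 0.0935). The ER membrane proteins DNAJB12, DNAJB14, DNAJC14 and DNAJC16 had log2 fold changes of -0.13 to 0.12. The summed level of the 13 ER members was 3277 ± 53.8 CPM in the controls and 2584 ± 11 CPM with CBX7 (SD, n = 2), a ratio of 0.788 that rests mostly on HSPA5 and HSP90B1.

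Mitochondrial members were not called. HSPA9 (mortalin), the HSP70 of the matrix, was at 782 and 730 CPM in the controls and at 669 and 692 CPM with CBX7 (log2 fold change -0.15, adjusted p = 0.276). HSPD1 and HSPE1 encode the chaperonin HSP60 and its lid HSP10 from a shared bidirectional promoter region on chromosome 2, where the RefSeq gene bodies begin at 197500274 and 197500379. HSPD1 was at 1188 and 1172 CPM and then at 1073 and 1050 CPM (log2 fold change -0.15, SE 0.0906, adjusted p = 0.252). HSPE1 was at 177 and 182 CPM and then at 197 and 243 CPM (log2 fold change 0.29, SE 0.109, adjusted p = 0.0659). The neighbours thus had fold changes of opposite sign, with HSPE1 at 0.149 and 0.156 of the HSPD1 count in the controls and at 0.183 and 0.232 with CBX7. That difference was not tested. The RefSeq gene bodies do not overlap. In the longer GENCODE v29 models the genes overlap on opposite strands in 14.2% of the exon bases of HSPE1. Of the 100-base stretches of HSPE1 in that annotation, 33.5% occur in other genes (16.5% in HSPD1). The annotation behind the counts is not known, so the split of reads between HSPD1 and HSPE1 is uncertain. HSPE1 passed with library totals (0.0245), DESeq2 (0.0339), no low-count filter (0.0387), a mean count of at least 50 (0.0299), the replicate block (0.0368) and without CBX7 library 1 (0.0287; log2 fold change 0.44). Without CBX7 library 2 the log2 fold change was 0.14 (adjusted p = 0.619), and without control library 1 or 2 the adjusted p was 0.194 or 0.121. Its read-through gene HSPE1-MOB4 had 853 counts in control library 1 and 0 in the others, and with it added HSPE1 was at 187, 182, 197 and 243 CPM.

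DNAJA3, the matrix partner of HSPA9, was at 126 ± 2.21 and 117 ± 1.03 CPM (SD, n = 2, adjusted p = 0.461). DNAJC4 went from 9.98 ± 0.839 to 13.2 ± 0.287 CPM (adjusted p = 0.0843, and 0.0449 with library totals). DNAJC19 of the import motor and DNAJC30 had log2 fold changes of 0.22 and 0.27, and DNAJC11 of the mitochondrial membranes had -0.16, none of them called. DNAJC15 and DNAJC28 did not exceed 0.406 CPM.

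**Figure D3:**
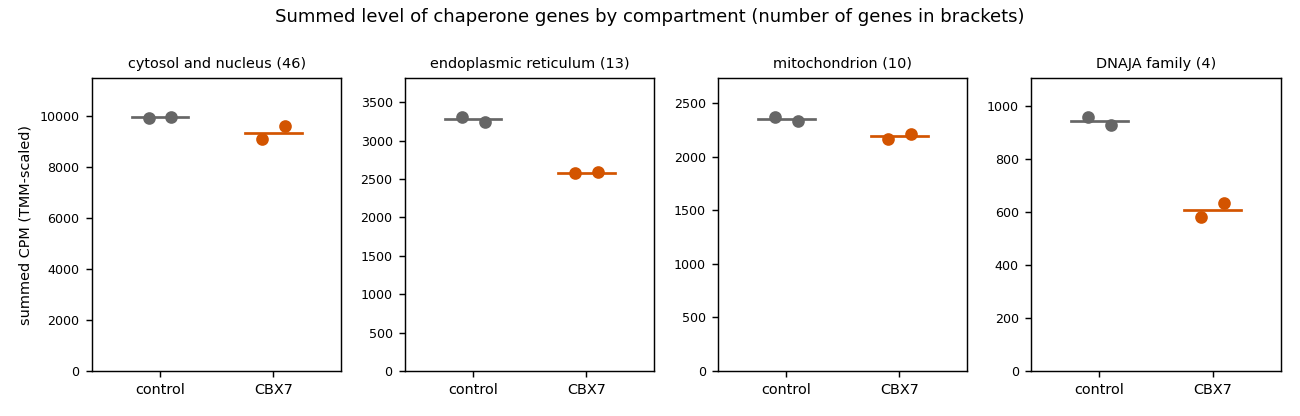
Summed TMM-scaled CPM (vertical axes, from 0) of the members of 3 compartments and of the DNAJA family in each library (points) with group means (lines). The ER sum is at 3315 and 3239 CPM in the controls and 2576 and 2591 CPM in the CBX7 libraries, and the DNAJA sum averages 943 CPM in the controls and 606 CPM with CBX7.

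All members together held 1.54% and 1.53% of the counts of the control libraries and 1.44% and 1.48% of those of the CBX7 libraries. To compare levels between genes, mean CPM was divided by the length of the principal GENCODE v29 transcript. On this length-scaled level the controls were led by HSPA8 (863 CPM per kilobase), HSP90AA1 (783), HSP90AB1 (766), HSPD1 (496), HSP90B1 (451) and HSPA5 (342). DNAJA1 followed with 292 CPM per kilobase and had 161 with CBX7, while DNAJB1 went from 73.1 to 99.1 and HSPA1A from 63.8 to 87.4 CPM per kilobase. These lengths are approximate, because the authors' annotation is not given in the sources used here. The count of HSP90AA1 relative to HSP90AB1 was 1.3 to 1.35 in all 4 libraries.

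**Figure D4:**
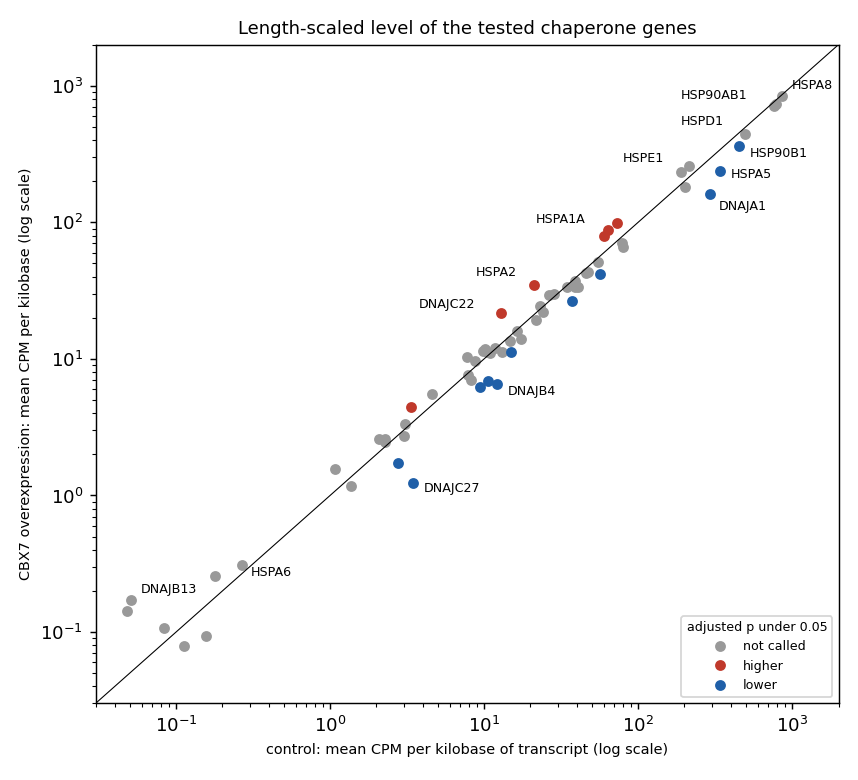
Mean CPM per kilobase of transcript in the controls (horizontal, log scale) and with CBX7 (vertical, log scale) for the tested members other than CRYAB and DNAJC15. The line marks equal levels. DNAJC15, at 0.0247 CPM per kilobase with CBX7, lies below the range of the vertical axis. Most points lie near the line; DNAJA1, HSPA5, DNAJB4 and DNAJC27 lie below it and HSPA1A, HSPA2 and DNAJC22 above.

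The partners of these chaperones that the symbol rule does not reach were taken from a list of 62 genes, and all were tested. Of them 4 were higher, 6 lower and 52 not called, a called share of 16.1% against 24.4% of all tested genes, with a median log2 fold change of 0.02. STUB1 (CHIP), the ubiquitin ligase that binds HSP70 and HSP90, rose from 48.4 ± 3.49 to 68.1 ± 2.03 CPM (SD, n = 2, log2 fold change 0.49, adjusted p = 0.00510). P4HA1, a collagen prolyl hydroxylase of the ER, fell from 73.4 ± 6.33 to 39.6 ± 1.42 CPM (adjusted p = 5.5e-05). The prefoldin subunit PFDN2 fell (log2 fold change -0.57, adjusted p = 0.00190) and PFDN6 rose (0.38, adjusted p = 0.0429). Among mitochondrial partners, HSCB, the J-domain protein of iron-sulfur cluster assembly, and GRPEL2, a nucleotide exchange factor of HSPA9, fell with log2 fold changes of -0.68 and -0.58 (adjusted p of 0.00219 and 0.00471). The protease subunits CLPP and CLPX had log2 fold changes of 0.40 and -0.35 (adjusted p of 0.0417 and 0.0270). HSF2, another heat shock factor, had a log2 fold change of -0.51 (adjusted p = 0.0175), and SDF2L1, an ER partner of BiP complexes, one of 0.37 (adjusted p = 0.0373).

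Of 10 ER partners counted as a group, a grouping that leaves out P4HA1, SDF2L1 was higher and 0 were lower. Uncalled among them were the lectin chaperones CANX, at 1031 ± 44.3 and 961 ± 48.4 CPM (SD, n = 2, adjusted p = 0.497), and CALR, at 540.2 ± 32.0 and 525 ± 2.80 CPM (adjusted p = 0.810). The disulfide isomerases PDIA6 and PDIA4 and HYOU1, the nucleotide exchange factor of BiP, were not called either, with adjusted p of 0.351, 0.254 and 0.338.

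With 1 library left out, SDF2L1 was called in 0 of 4 fits, and PFDN6, CLPP, CLPX and HSF2 in 1 of 4. Of the 14 HSP90 partners, among them STIP1, CDC37 and PTGES3 (p23), edgeR called 0, 2 had an unadjusted p under 0.05, and DESeq2 and limma-voom called 0. Of the 6 BAG nucleotide exchange factors edgeR called 0, as did DESeq2 and limma-voom, and 0 had an unadjusted p under 0.05; BAG3, a known HSF1 target, was at 99.1 ± 0.498 and 87.0 ± 1.17 CPM (SD, n = 2). Of the 8 subunits of the TRiC chaperonin edgeR called 0, 1 had an unadjusted p under 0.05, and DESeq2 called 1 and limma-voom 0.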

How the data were processed

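Total RNA of 2 control and 2 CBX7 libraries of A549 cells was sequenced. The authors deposited 1 table of estimated counts per gene and library, keyed by symbol; the values were whole numbers already, so rounding changed none. The submitters' processing notes name StringTie 2.2.1, HISAT2 2.2.1, DESeq2 and build hg38 without roles; the sources used here do not state annotation, strandedness or the handling of shared reads. A 0 can therefore be a failed estimate.

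The counts were tested with edgeR 4.0.16 (R 4.3.3; filterByExpr, TMM, robust quasi-likelihood, group only) over all 17271 genes that passed the filter, with Benjamini-Hochberg adjustment over all of them. CPM is the count scaled to the TMM-adjusted library total, and values with ± are mean and SD, n = 2. Standard errors came from the fold change and its F statistic. Nothing in the labels says that replicates were separate cultures, so the p-values reflect the spread between libraries that may be technical repeats. Floors cover counting error only. The tests were checked on simulated counts. Alternatives were DESeq2 1.42.0, limma-voom (limma 3.58.1), other scalings and filters, a replicate block and leaving out each library.

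The members and lists, and the families and compartments given to them, were chosen with earlier results of these data known. Named were CBX7, SOCS3, a fixed core of 21 members, up to 4 called members and the most abundant uncalled member per family, the called partners, and others behind small counts; the remaining members and 6 uncalled partners were described after their values were seen. Shared 100-base stretches and exon overlaps came from GENCODE v29, positions from RefSeq (GRCh38.p14).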

Additional observations from a re-analysis of the deposited data

How the results depend on the processing

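Over 86 genes (the tested members and the other genes named), 11 alternative settings gave 938 values: 880 kept their side of the threshold, 40 lost the call and 18 gained it. Of these values 25 changed sign, all for genes not called in either fit, such as HSF1 and HSPA8; no called gene changed sign. Of the 18 called members, 9 were called under every setting in which they were tested (HSPA1A, HSPA2, DNAJB1, DNAJA1, DNAJB4, DNAJC22, DNAJC25, DNAJC27 and HSPA5). No setting changed how reads were split between genes, such as DNAJC25 and DNAJC25-GNG10 or HSPA1A and HSPA1B, so these calls still depend on that split. With 1 library left out, genes called higher numbered 1021 to 1790 and lower 1689 to 2134, members 4 to 6 and 7 to 11, partners 1 to 3 and 4 to 8, cytosolic members 3 to 5 and 3 to 6, ER members 0 and 2 to 4, and mitochondrial members 0 to 1 and 0; a fit on 3 libraries has fewer samples. The number of mitochondrial members called higher was 2 with library totals and 1 each with DESeq2, no low-count filter, a mean count of 50 or more and the replicate block. The median log2 fold change of members was 0.006 with library totals, -0.036 with DESeq2, -0.03 with no low-count filter, -0.092 at a mean count of 50 or more, and -0.072 to -0.015 with 1 library left out. Under the replicate block 8 members were higher and 11 lower, against 7 and 11 without it. The deviations of same-numbered libraries correlated at 0.0281 across genes, so the numbers are not taken to pair them; the block ended the calls of CRYAB and HSPA13 and gave calls to HSPB1, HSPE1 and DNAJC7 (lower). With 2 libraries a group, the spread is estimated mostly from all genes together, and changes of the size seen in HSPH1 or HSP90AA1 were within the error of that fit.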
